A study of Homo sapiens with 4 samples.

Results

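The IFIT locus on human chromosome 10 was followed in RNA bound by the double-stranded RNA antibody J2 and in total RNA (Input) of NCI-H1944 cells. NCI-H1944 is an established lung adenocarcinoma line, labelled WT. The members were IFIT1, IFIT2, IFIT3, IFIT5 and SLC16A12-AS1, 5 of 58780 genes of GENCODE release 29. Every counted region that carried 1 of these gene names or lay on chromosome 10 between 89268694 and 89481001 (hg38) was taken. This gave 587 of 2310971 regions of the Input table and 832 of 3814162 regions of the J2 table. All cells were exposed for 48 h and then cultured for 24 h after washout. The MPS1i groups had received 100 nM BAY-1217389, an inhibitor of the mitotic checkpoint kinase MPS1, and the DMSO groups the solvent. Each of the 4 groups, Input and J2 of either treatment, held 1 library of 1 cell line, so every difference below compares libraries, has no replicate check and carries no p-value.

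IFIT proteins are among the most strongly interferon-induced proteins of human cells. IFIT1 binds RNA that lacks the normal cap methylation and keeps it from being translated, IFIT2 and IFIT3 form complexes with it, and IFIT5 binds RNA with a 5′ triphosphate. The 4 genes lie in a row on the plus strand, together with IFIT1B and the pseudogene IFIT6P. An RNA polymerase normally leaves the DNA soon after the polyadenylation site. Read-through is transcription that goes on past that site, and it yields RNA of the sequence between genes, where repeats such as Alu and L1 are common. J2 binds long double-stranded RNA with little regard to sequence. SLC16A12-AS1 is an annotated noncoding gene on the same strand as the IFIT genes, past the end of IFIT5.

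Interferon acts on genes through a short promoter element, the ISRE, whose core can be written GAAANNGAAA or, on the other strand, TTTCNNTTTC. The promoter windows of 4 members are shown because the members moved together. No window of IFIT2 was used here. The windows are from RefSeq on GRCh38.p14, plus strand, and run from 250 bases before to 50 bases after an annotated start. Capitals mark a match to the core on either strand.
IFIT1, chr10:89392373-89392672: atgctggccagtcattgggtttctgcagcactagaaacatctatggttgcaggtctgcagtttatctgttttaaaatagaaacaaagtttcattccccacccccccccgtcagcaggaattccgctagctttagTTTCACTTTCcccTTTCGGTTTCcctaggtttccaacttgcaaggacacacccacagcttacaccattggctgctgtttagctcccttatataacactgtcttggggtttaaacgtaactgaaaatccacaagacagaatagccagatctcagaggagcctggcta
IFIT3, chr10:89327747-89328046: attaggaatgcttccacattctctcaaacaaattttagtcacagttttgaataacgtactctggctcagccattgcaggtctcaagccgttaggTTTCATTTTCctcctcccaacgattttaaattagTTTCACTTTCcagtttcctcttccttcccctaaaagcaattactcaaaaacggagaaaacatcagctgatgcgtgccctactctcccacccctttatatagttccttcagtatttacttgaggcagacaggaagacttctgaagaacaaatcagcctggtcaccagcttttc
IFIT5, chr10:89414318-89414617: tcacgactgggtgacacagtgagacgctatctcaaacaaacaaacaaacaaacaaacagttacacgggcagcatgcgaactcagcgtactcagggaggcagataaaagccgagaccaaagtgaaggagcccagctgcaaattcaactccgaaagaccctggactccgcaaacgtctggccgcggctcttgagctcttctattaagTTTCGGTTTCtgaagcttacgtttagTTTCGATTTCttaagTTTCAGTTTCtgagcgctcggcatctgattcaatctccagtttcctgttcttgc
SLC16A12-AS1, chr10:89455741-89456040: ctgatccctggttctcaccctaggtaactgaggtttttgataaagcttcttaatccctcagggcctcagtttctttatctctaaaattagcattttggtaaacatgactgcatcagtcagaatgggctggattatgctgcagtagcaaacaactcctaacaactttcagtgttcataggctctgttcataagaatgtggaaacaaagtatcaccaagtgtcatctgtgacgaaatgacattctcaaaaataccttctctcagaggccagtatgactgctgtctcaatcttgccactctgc
The window of IFIT1 held 2 matches, that of IFIT3 held 2 and that of IFIT5 held 3. A second window of IFIT3 also held 2. No match was found in the window of SLC16A12-AS1 or in that of IFIT1B. Of all 35116 promoter windows of this length, 3.57% held the core. Counted by gene, 4.38% of 27305 genes had a match in at least 1 window. Of 45 interferon-stimulated genes with a window, 29 did. A match is a description of letters and not a measured binding site.

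The Input libraries totalled 6381610 (DMSO) and 4844956 (MPS1i) counts and the J2 libraries 9793355 and 6697479. Values are given as counts or as CPM, the count divided by its library's total and scaled to a common depth. Mitochondrial reads made up 20.2% to 24.3% of the Input libraries and 0.608% to 0.836% of the J2 libraries. The 10 lung epithelium markers summed to 3278 and 4064 counts in DMSO and MPS1i Input. Of these counts KRT18 alone held 2405 and 3386, while KRT19, NKX2-1 and SFTPB were at 0 in all libraries. The 5 fibroblast markers summed to 0 and 4 in the same libraries. Of the leukocyte markers, PTPRC had 0 and 12 counts, while CD3E, CD14 and LYZ were at 0 in Input, and their part in the results was not tested. The 3 endothelial markers summed to 24 and 29. The counted regions left out GENCODE exons almost completely. No such exon base of IFIT1, IFIT2, IFIT5 or SLC16A12-AS1 was covered on the genes' strand, and 48 (Input) and 45 (J2) of the 2640 exon bases of IFIT3 were. A gene's value is therefore a sum over sequence outside these exons and not a level of mature mRNA. Other transcript sets differ, and the deposited annotation places the leading Input region of IFIT1 in a 5′ UTR exon of another transcript.

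All 5 members were higher in MPS1i than in DMSO, in J2 and in Input. A gene is called higher here when its 2 libraries hold at least 50 counts, MPS1i exceeds DMSO 2-fold or more in CPM, and 1 lies outside the 95% counting interval (exact, Clopper-Pearson). By this rule 15.9% of the genes with enough counts were higher in the J2 comparison and 12.8% in the Input comparison. The intervals, given in square brackets, cover counting error only, and reads copied in amplification are not independent molecules. In bulk RNA a larger number of responding cells and more RNA per cell cannot be told apart.

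IFIT1 (chr10:89392546-89406486) had 45 counts in DMSO Input, 824 in MPS1i Input, 34 in DMSO J2 and 679 in MPS1i J2. Both MPS1i libraries were far above their DMSO library. The log2 ratio, computed with a pseudocount of 0.5 counts, was 4.58 [4.16, 5.06] in Input and 4.85 [4.37, 5.41] in J2. IFIT2 (chr10:89283694-89309276) had 36 and 315 counts in DMSO and MPS1i Input, and 7 and 121 in J2. Its log2 ratios were 3.51 [3.03, 4.07] and 4.57 [3.57, 6.0]. The annotated start of IFIT2 belongs to a long transcript, and the reads began 15 to 20 kb downstream of it. The 15 kb from that start held 2 counts in MPS1i Input and 7 in MPS1i J2.

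IFIT3 (chr10:89327894-89340971) had 27 and 250 counts in DMSO and MPS1i Input and 67 and 441 in J2, with log2 ratios of 3.58 [3.03, 4.24] and 3.26 [2.89, 3.66]. Among the 5 members IFIT3 had the most reads in DMSO J2. IFIT5 (chr10:89414586-89421001), whose single intron is short, had 6 and 50 counts in Input and 1 and 96 in J2. The log2 ratios were 3.36 [2.23, 4.97] and 6.56 [4.62, 12.45], the latter resting on 1 count in DMSO. With regions taken by their deposited gene name on both strands, which reach past the gene, the IFIT5 value in Input was 5.21, from 70 to 1987 counts. SLC16A12-AS1 (chr10:89456064-89468140) had no read in DMSO. Its MPS1i counts were 50 in Input and 174 in J2, at least 22.0-fold and 84.8-fold higher than a floor of 3 counts per DMSO library. Without regions under 10 counts, IFIT5 and SLC16A12-AS1 had too few Input counts for a call.

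Per kb of gene, IFIT1 was the highest member in MPS1i in both kinds of RNA, at 12.2 CPM per kb in Input and 7.27 in J2. IFIT3 followed at 3.95 in Input and 5.03 in J2. IFIT2 came next in Input at 2.54 and last in J2 at 0.706. IFIT5 was at 1.61 and 2.23 and SLC16A12-AS1 at 0.855 and 2.15, so these neighbours in the J2 order lay close together. This order rests on single regions and on the divisor, as checks chosen after seeing the data showed. Without the region with the most MPS1i counts in each gene, IFIT1 and IFIT3 lay at 3.55 and 3.58 in Input and at 3.49 and 3.65 in J2. Per kb outside exons, IFIT1 was still highest, at 18.2 and 10.9, but IFIT5 at 4.30 lay above IFIT2 at 3.03 in Input. Either divisor of IFIT2 includes the stretch after its annotated start that held almost no reads, which lowers its values. In DMSO Input, per kb of gene, the order of the 4 IFIT genes was IFIT1 at 0.506, IFIT3 at 0.324, IFIT2 at 0.221 and IFIT5 at 0.147.

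**Figure D1:**
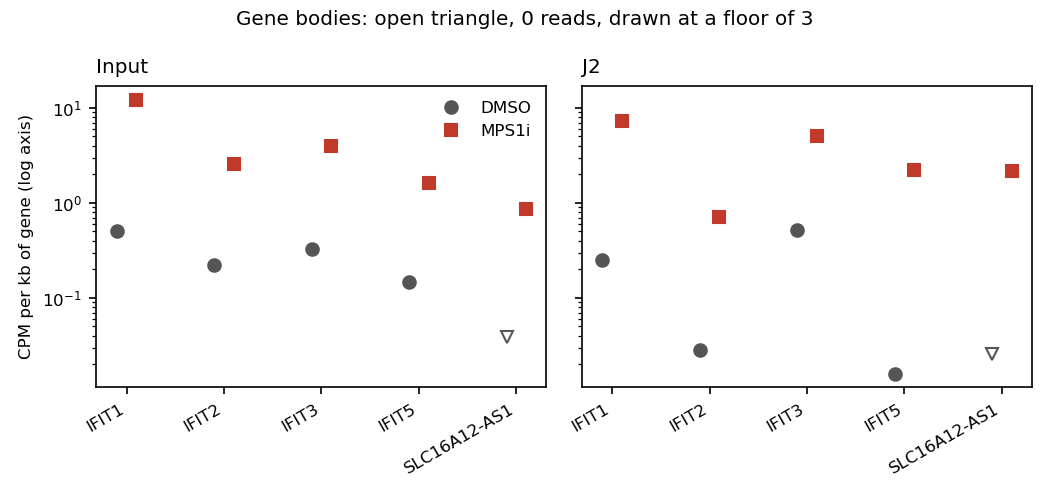
Reads in the gene bodies of the 5 members, in CPM per kb of gene on a log axis, in Input (left) and J2 (right); circles are DMSO, squares MPS1i, 1 library each, and an open triangle is a library with 0 reads drawn at 3 counts. Each MPS1i square lies above its DMSO mark, and IFIT1 is highest in MPS1i at 12.2 in Input and 7.27 in J2.

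In MPS1i, most counted reads on the IFIT strand of the locus lay outside the genes. Exons were almost wholly left out of the counted regions, so the shares below are of reads outside exons. The window was divided at annotated gene starts and ends into gene bodies and the gaps between them, and each region was given to the stretch holding its midpoint. On the IFIT strand the whole window rose from 156 to 4250 counts in Input, a log2 ratio of 5.16 [4.93, 5.41]. In J2 it rose from 210 to 8705, or 5.92 [5.72, 6.13]. Together the 4 IFIT bodies went from 114 to 1439 in Input (4.05) and from 104 to 1315 in J2 (4.20). The gaps went from 42 to 2758 in Input (6.42) and from 106 to 7210 in J2 (6.63). Of the reads on this strand, gaps held 26.9% (Wilson 95% interval 20.6% to 34.4%) in DMSO Input and 64.9% (63.4% to 66.3%) in MPS1i Input. In J2 their share was 50.5% (43.8% to 57.2%) in DMSO and 82.8% (82.0% to 83.6%) in MPS1i.

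The gaps rose more than the bodies. The difference of the log2 ratios was 2.37 [1.85, 2.88] in Input and 2.43 [2.03, 2.83] in J2. A shift of reads out of genes was also a property of the whole libraries. Without the mitochondrial genome, regions outside genes took 30.1% of DMSO Input and 40.3% of MPS1i Input reads, and 28.8% and 40.9% of the J2 reads. The same difference over the whole tables was 0.65 in Input and 0.77 in J2. At the IFIT locus it was larger than these sums, with counting intervals that did not reach them. How far other single loci differ from the sums was not tested.

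**Figure D2:**
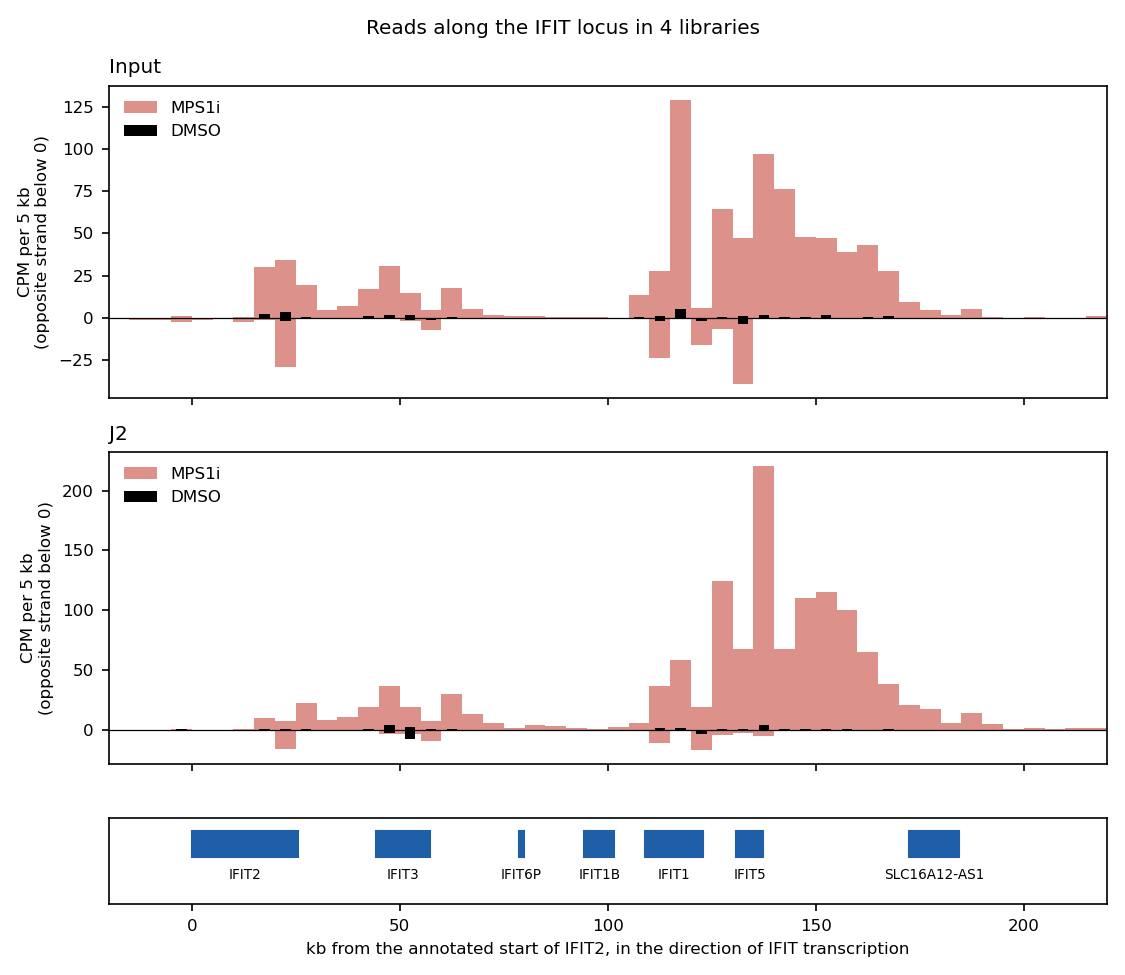
Reads in 5 kb bins along the locus in CPM, against distance in kb from the annotated start of IFIT2, in Input (top) and J2 (middle), with genes as blue boxes; wide bars are MPS1i, narrow black bars DMSO, and bars below 0 are the opposite strand. In MPS1i J2 the highest bin lies at 135 to 140 kb with 220.4 CPM, at the end of IFIT5, and the signal declines towards SLC16A12-AS1.

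The stretch from IFIT5 to SLC16A12-AS1, 35.1 kb with no gene on this strand, held the most reads. Its Input counts were 32 in DMSO and 1851 in MPS1i (6.23 [5.75, 6.80]). In J2 it had 67 and 4916 (6.73 [6.40, 7.12]), which was 56.5% of the reads on this strand of the window in MPS1i J2 and 43.6% in MPS1i Input. The 8.10 kb between IFIT1 and IFIT5 had 5 and 518 counts in Input (6.96 [5.86, 8.72]) and 13 and 1315 in J2 (7.15 [6.43, 8.12]). Per kb of full length it was the densest stretch of the window, at 13.2 CPM per kb in MPS1i Input and 24.2 in MPS1i J2. Per kb outside exons, the IFIT1 body lay above it in MPS1i Input but not in MPS1i J2.

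The gap after IFIT2 had 2 and 202 counts in Input (6.74) and 13 and 359 in J2 (5.28). After IFIT3, up to IFIT6P, the counts were 3 and 145 in Input (5.77) and 9 and 394 in J2 (5.92). Both gaps were called higher in both tables. The reads then thinned towards IFIT1B. The gap from IFIT6P to IFIT1B held 0 and 7 counts in Input, and 1 and 61 in J2, where it was still called higher (5.91). IFIT1B itself held 0 and 3 in Input and 0 and 6 in J2, in counted regions covering 0.327 and 0.676 kb. IFIT6P had no counted region on this strand in either table, so no read could be counted in it. The 7.34 kb between IFIT1B and IFIT1 had none in Input and 0 and 15 in J2. The reads thus lay mainly in 2 blocks, 1 over IFIT2 and IFIT3 and 1 from IFIT1 onward.

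Gene by gene, the gap after IFIT1 exceeded its body by 2.38 [1.09, 3.67] in Input and 2.31 [1.39, 3.22] in J2, as a difference of log2 ratios. For IFIT3 the values were 2.19 [0.56, 3.82] and 2.63 [1.62, 3.63]. For IFIT2 and IFIT5 the Input interval lay above 0, at 3.23 [1.36, 5.09] and 2.87 [1.59, 4.15]. In J2 their intervals held 0, at 0.72 [-0.60, 2.04] and 0.18 [-2.17, 2.53], with 7 and 1 DMSO counts in the 2 bodies.

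**Figure D3:**
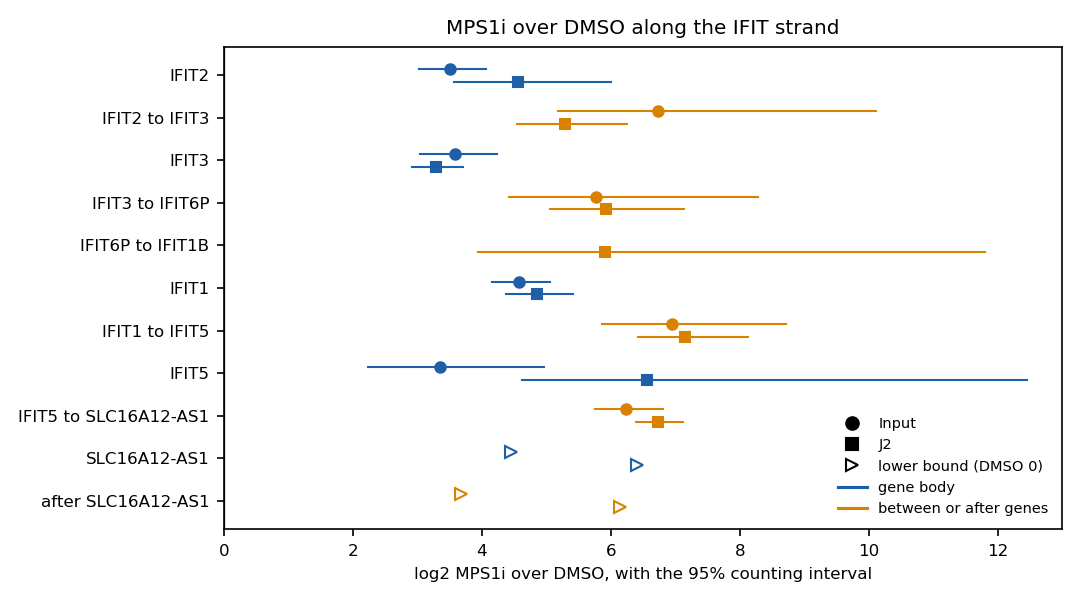
The log2 ratio of MPS1i to DMSO for each body (blue) and gap (orange) of the IFIT strand with at least 50 counts in MPS1i J2, in order along the locus, with 95% counting intervals; circles are Input, squares J2, and open triangles lower bounds where DMSO had 0 reads (the Input value of the gap from IFIT6P to IFIT1B, 0 and 7 counts, is not drawn). The gaps after IFIT2, IFIT3 and IFIT1 lie to the right of the body before them in both tables.

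The reads just after each gene end were set against the density over the gene's own body, a measure available for every gene. For IFIT5 the first 10 kb held 14 counts in DMSO Input, 947 in MPS1i Input, 45 in DMSO J2 and 2177 in MPS1i J2. This was 1215% of the body density in MPS1i Input and 1455% in MPS1i J2. Of the genes with at least 50 body counts and no gene on their strand in the next 10 kb, 183 of 6928 had a higher percentage in Input and 226 of 7673 in J2. Most of the IFIT5 body is exon and so cannot hold reads here. Per kb outside exons the values were 455% and 544%, with 462 of 6924 and 559 of 7669 genes higher. Over the whole body, the DMSO percentages of IFIT5 were 150% in Input and 2887% in J2, from 6 and 1 body counts.

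For IFIT2 the 10 kb after the end had 2 and 118 counts in Input and 7 and 223 in J2, or 95.8% and 471% of its body in MPS1i. The IFIT2 body takes in the long stretch after its annotated start that held almost no reads. This lowers the body density and raises both percentages. For IFIT3 the 10 kb had 2 and 124 in Input and 8 and 292 in J2, or 64.9% and 91.1%. The window of IFIT1 stops after 8.10 kb at IFIT5, and its 5 and 518 Input and 13 and 1315 J2 counts came to 108% and 333%. In the first 5 kb alone they were 19.3% and 97.7%, most of the reads lying next to IFIT5. After SLC16A12-AS1 there were 0 and 29 Input and 0 and 137 J2 counts, or 70.0% and 95.1%. The median over all ranked genes was 32.5% in MPS1i Input and 49.7% in MPS1i J2, against 18.2% and 19.6% in DMSO. In DMSO Input and DMSO J2, IFIT2 was at 14.2% and 256%, IFIT3 at 9.69% and 16.9%, and IFIT1 at 19.1% and 65.8%. The 256% of IFIT2 rests on 7 body counts. In MPS1i J2 34.4% of all ranked genes had a higher density after the end than over the body.

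The count after the gene end was called higher in MPS1i for 5 of 5 members in J2 and 4 of 5 in Input, SLC16A12-AS1 having too few counts there. Among the ranked genes with at least 50 counts after the end, 27.9% were called higher in J2 and 27.6% in Input. These genes had a free 10 kb and at least 50 body counts. IFIT1 is not among them, as IFIT5 lies closer. The median excess of the stretch after the end over the body, as a difference of log2 ratios, was 0.62 in J2 and 0.68 in Input for these genes. For IFIT3 and IFIT1 it was 2.36 [1.30, 3.41] and 2.31 [1.39, 3.22] in J2. For IFIT2 it was 0.88 [-0.62, 2.37] and for IFIT5 -0.43 [-2.79, 1.94], both intervals holding 0 and the general median. In Input the 4 IFIT values were 2.46 [0.58, 4.33] for IFIT2, 2.45 [0.56, 4.34] for IFIT3, 2.38 [1.09, 3.67] for IFIT1 and 3.07 [1.68, 4.47] for IFIT5. All 4 Input intervals lay above 0, and those of IFIT1 and IFIT5 above the general median. An interval above 0 was common, as 809 of 1587 genes in Input and 1311 of 2554 in J2 had one.

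**Figure D4:**
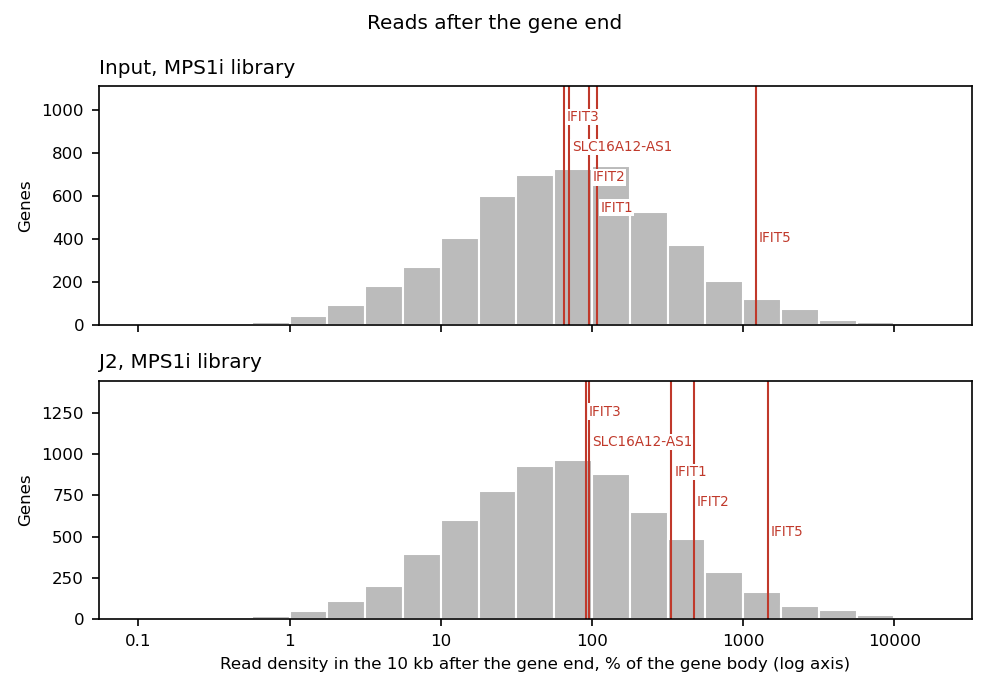
Read density in the first 10 kb after the gene end as a percent of the density over the gene body, on a log axis, for all ranked genes (grey bars, number of genes; genes listed at 0 left out) and the members (red lines; 8.10 kb for IFIT1), in MPS1i Input and MPS1i J2. IFIT5 lies far to the right in both panels, at 1215% and 1455%, and IFIT3 lies near the middle.

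The distance covered differed between the ends. After IFIT5, MPS1i J2 had 46.2 CPM per kb in the first 5 kb, 18.8 from 5 to 10 kb, 20.5 from 10 to 20 kb and 17.9 from 20 to 30 kb. Input had 27.3, 11.8, 8.05 and 9.78 in the same steps, so reads were still present at 20 to 30 kb in both. After IFIT3 the J2 values were 6.24, 2.48 and 1.48 CPM per kb over 0 to 5, 5 to 10 and 10 to 20 kb. After IFIT2 they were 4.57 and 2.09 in the 5 kb steps and 2.36 in the remaining 8.62 kb before IFIT3. After IFIT1 they rose, from 7.11 in the first 5 kb to 51.9 in the 3.10 kb next to IFIT5.

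SLC16A12-AS1 lay at the far end of the block. On the IFIT strand no read was counted in it, or in the 12.9 kb of the window after it, in either DMSO library. The latter stretch had 29 counts in MPS1i Input and 145 in MPS1i J2, at least 70.7-fold higher than the floor in J2. After its end the J2 density was 3.17 CPM per kb in the first 5 kb, 0.926 in the next 5 kb and 0.224 from 10 to 20 kb. The density over SLC16A12-AS1 itself, 2.15, was below that of the gap before it, 20.9. Whether these reads belong to RNA that begins at an IFIT gene or at SLC16A12-AS1 was not tested.

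Single regions showed where the reads lay. All 33 regions of this strand with at least 50 J2 counts were called higher, as were all 18 in Input, and none was lower. Over all regions, 12.5% of such J2 regions and 16.3% of such Input regions were called higher. The region with the most MPS1i J2 reads, chr10:89422048-89425082, is intergenic, begins 1 kb past IFIT5 and holds an LTR16B2, an AluSz6 and an L1MA8 repeat. Its counts were 33 in DMSO and 1297 in MPS1i (5.82 [5.35, 6.39]). Within it Input had its own top region outside genes, chr10:89422223-89423832, with 7 and 384 counts. The next J2 region, chr10:89411882-89413766, lies between IFIT1 and IFIT5 over an LTR12 and HERV9N-int sequence, endogenous retroviral elements, and had 8 and 716 counts (6.95 [6.05, 8.25]).

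A further pair of leading J2 regions were at chr10:89434880-89439187, over L2 and MIRb repeats, with 4 and 657 counts, and at chr10:89431043-89432472, with 5 and 296. Both lie opposite the annotated SLC16A12 gene, an intron and its 3′ UTR, and past the end of IFIT5. The region at chr10:89413784-89414507 ends just before the start of IFIT5 and had 2 and 356. In Input the other leading regions outside genes were chr10:89412140-89412922 (3 and 200), chr10:89413815-89414563 (1 and 180), chr10:89441078-89444099 (1 and 152) and chr10:89445878-89446935, an L1PA6 copy (2 and 114). Each was called higher.

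Inside IFIT1 a single region led both tables. It overlaps an MLT1B repeat at chr10:89399742-89400083 in Input, where it held 28 counts in DMSO and 584 in MPS1i of the 45 and 824 of the gene. In J2 the corresponding region, chr10:89399713-89400003, held 14 and 353. IFIT3 was led in J2 by chr10:89330020-89331219 over a MER5A repeat, with 16 and 121 counts, and in Input its top region, chr10:89327854-89327941 at the start, had 6 and 23. The reads of IFIT2 were led in both tables by nearly the same intron stretch, chr10:89303109-89303519 in Input with 5 and 80 counts and chr10:89303107-89303487 in J2 with 1 and 41. In IFIT5 the top region was at an ACA simple repeat, with 4 and 25 counts in Input and 0 and 41 in J2.

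Regions with an annotated repeat on the IFIT strand held 66.2% of the MPS1i Input reads of the window's strand and 75.7% of the MPS1i J2 reads. They made up 53.1% and 62.0% of the covered length. Reads of regions with and without a repeat rose by similar ratios in J2, from 155 to 6591 (5.95 [5.73, 6.20]) and from 55 to 2114 (5.80 [5.43, 6.23]). Regions with an Alu went from 12 to 698 in Input (6.20 [5.45, 7.22]) and from 58 to 2557 in J2 (6.0 [5.64, 6.41]). Regions with L1 went from 16 to 842 and from 58 to 2848. A region can hold several repeats and then counts under each.

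The opposite strand rose less. Over the window it had 108 and 658 counts in DMSO and MPS1i Input (3.0 [2.71, 3.31]) and 214 and 573 in J2 (1.97 [1.74, 2.20]). Its share of all reads in the window fell from 40.9% to 13.4% in Input and from 50.5% to 6.18% in J2. Most opposite reads in MPS1i lay in regions that touch an exon of the IFIT strand, though such regions also reach over introns. They had 55 and 398 counts in Input (3.24 [2.84, 3.69]) and 61 and 403 in J2 (3.26 [2.88, 3.69]), which was 60.5% and 70.3% of the opposite reads in MPS1i. The remaining opposite regions had 53 and 260 counts in Input (2.68 [2.26, 3.15]). In J2 they had 153 and 170, or 0.70 [0.38, 1.02], under the 2-fold rule. The large gap after IFIT5 had 0 and 4 opposite counts in Input and 3 and 47 in J2, beside 1851 and 4916 on the IFIT strand in MPS1i.

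LIPA, the lysosomal acid lipase gene, is annotated on the opposite strand from 89213569 to 89414557, so its span takes in the opposite strand of IFIT2, IFIT3 and IFIT1. Its summed regions rose from 136 to 756 in Input (2.87 [2.61, 3.15]) and from 258 to 712 in J2 (2.01 [1.81, 2.22]). This sum includes the opposite regions named above that touch exons of IFIT2, IFIT3 and IFIT1. SLC16A12, a monocarboxylate transporter gene on the opposite strand, had 4 and 13 counts in Input and 6 and 25 in J2, too few for a call.

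J2 was then set against Input within each treatment. The 2 tables have separate regions, and those of J2 cover more sequence, 73.4 against 40.5 kb over the gaps and 19.7 against 15.2 kb over the 4 bodies. In MPS1i the gaps together had a log2 ratio of J2 to Input of 0.92 [0.86, 0.98], and the 4 bodies of -0.60 [-0.71, -0.49]. Their difference was 1.52 [1.39, 1.64] in MPS1i and 1.46 [0.82, 2.10] in DMSO. For the whole tables, outside against inside genes, the same difference was 0.03 and -0.09. The lead of the gaps in J2 was thus there in both treatments at this locus and not in the sums over the whole tables. How far single loci differ from those sums was not tested.

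Of the members, SLC16A12-AS1 was higher in J2 than in Input in MPS1i, at 1.32 [0.87, 1.82], where 18.7% of all genes were. IFIT2 was lower, at -1.84 [-2.16, -1.54], as were 9.37% of all genes. IFIT1 (-0.75 [-0.90, -0.60]), IFIT3 (0.35 [0.12, 0.58]) and IFIT5 (0.47 [-0.03, 1.00]) did not pass the 2-fold rule. The median of all genes was 0.30. In DMSO 20.3% of genes were higher in J2 and 10.1% lower. Only IFIT1, at -1.02 [-1.71, -0.35] and called lower, and IFIT3, at 0.68 [0.03, 1.40] and not called, had enough counts among the members. Of the gaps, those before IFIT1B and after SLC16A12-AS1 passed the rule in MPS1i, at 2.57 [1.53, 4.03] and 1.84 [1.27, 2.48]. The counted regions of these gaps covered 4.858 and 5.125 kb in J2 but only 0.615 and 0.966 kb in Input. Over SLC16A12-AS1 they covered 4.875 kb in J2 and 1.225 kb in Input. How much of these higher ratios comes from the difference in counted sequence was not tested.

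**Figure D5:**
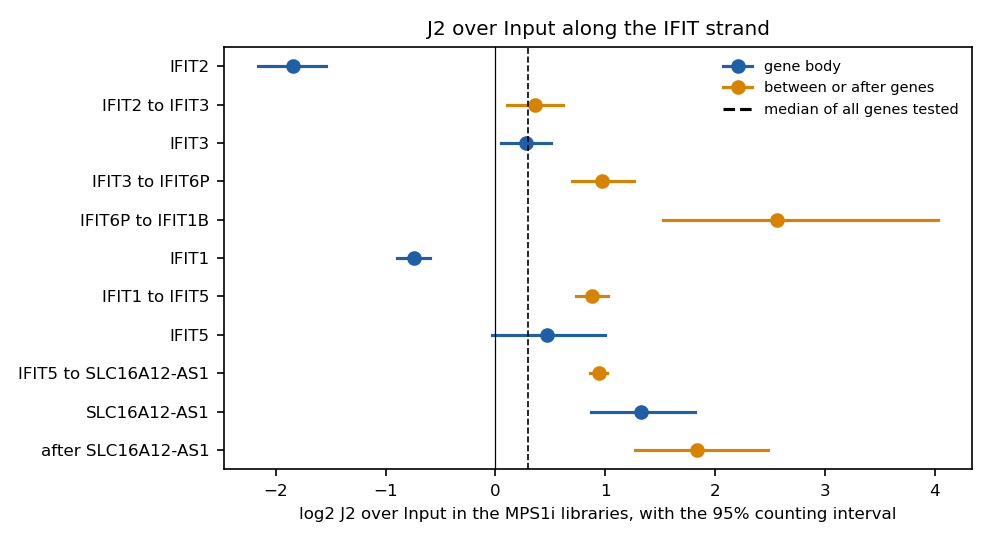
The log2 ratio of J2 to Input in the MPS1i libraries for each body (blue) and gap (orange) of the IFIT strand, with 95% counting intervals; the dashed line is the median of all genes tested, 0.30. IFIT2 and IFIT1 lie below 0, while the gaps after IFIT1 and IFIT5 lie near 0.9.

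The change of this ratio from DMSO to MPS1i was called higher for 1 of 5 members, where 9.09% of all genes were. That member was IFIT5, at 3.20 [0.59, 5.81], from 6 and 50 Input and 1 and 96 J2 counts. With only regions matched between the tables, IFIT5 kept no J2 read and the call was lost. For IFIT2 the change was 1.06 [-0.12, 2.23], for IFIT1 0.27 [-0.38, 0.93], for IFIT3 -0.33 [-1.0, 0.35] and for SLC16A12-AS1 1.94 [-3.73, 7.61]. These 4 intervals held 0. For the gap after IFIT5 it was 0.51 [-0.10, 1.11].

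The flanking genes with enough counts were not called. STAMBPL1, a deubiquitinase gene upstream of the locus, had log2 ratios of 0.30 in Input and 0.17 in J2. PANK1, a pantothenate kinase gene downstream, had 0.30 and 0.23, and KIF20B, a mitotic kinesin gene, had -0.42 and -0.50. FAS, the death receptor, had 21 and 30 counts in Input (0.90, not called) and 10 and 32 in J2, too few for a call. ACTA2, smooth muscle actin, had 8 and 31 counts in Input and 8 and 20 in J2. CH25H had no counted region in either table, so it could hold no count. The noncoding AL353751.1 lies inside IFIT2, and regions overlapping more than 1 gene were given to none, so it too could hold no count. The 100 kb before the window were called higher on both strands, from 36 to 92 J2 counts on the IFIT strand (1.89 [1.33, 2.50]) and from 53 to 230 on the other (2.66 [2.23, 3.13]), which LIPA shares in part.

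Of 56 other interferon-stimulated genes, 41 had enough J2 counts and 39 of these were higher and none lower, with a median log2 ratio of 2.93 against -0.20 over all genes. In Input 42 of 43 were higher, with a median of 2.78 against -0.22. Over all genes 15.9% were higher in J2 and 12.8% in Input. The J2 values of all 5 members lay above the median of the list. The change of J2 over Input was called higher for 4 and lower for 3 of 41 of these genes. Over all genes it was called higher for 983 and lower for 845 of 10820, a similar share. Reads after the gene end could be ranked for 22 of them in J2, with a median of 75.9% of the body in MPS1i. Of the 17 with at least 50 such reads, 16 were higher, where 27.9% of all ranked genes with that many were.

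Among these genes the highest percentages in MPS1i J2 were those of MX1, a dynamin-like antiviral GTPase, at 1203% with 169 and 1911 counts after the end, SAMD9 at 672% with 11 and 643, and IFI35 at 416% with 261 and 183. MX1 and SAMD9 were called higher after the end (4.04 and 6.35), whereas IFI35 was not (0.04). The lowest were SP110, a nuclear body protein gene, at 6.75% with 1 and 10 counts, BATF2, a transcription factor gene, at 9.63% with 1 and 11, and SAMD9L at 12.3% with 4 and 95. SP110 had 77 and 866 body counts in J2, so a large rise over the body came with few reads after the end in that gene. IFIT5 at 1455% lay above all 22, but per kb outside exons its 544% was below the 937% of MX1.

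The genes most like IFIT1 over the 4 libraries were found by the Euclidean distance of their centred log2 CPM, among 9536 genes with at least 50 counts in each pair. They were PEBP4 at 0.412, TNFSF10, the death ligand TRAIL, at 0.609, BATF2 at 0.702, AC009435.1 at 0.711 and AC007656.1 at 0.828, where the median over all genes was 5.19. In TNFSF10 the counts were 5 and 59 in Input and 2 and 61 in J2. The other members stood further down the order, IFIT5 at place 50, IFIT2 at 75, IFIT3 at 105 and SLC16A12-AS1 at 773. With 4 libraries this order describes these libraries only.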

How the data were processed

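RNA of 4 libraries was measured, and the groups come from the sample titles. The authors deposited raw read counts per stranded region, in 1 table for Input and 1 for J2. The submitters' processing notes name STAR, featureCounts, HOMER, cutadapt, Trimmomatic and Trim Galore, with no version or role, and the genome GRCh38 (hg38). Libraries were made with a strand-keeping total RNA kit, per the labels' protocols. The calling of regions and the treatment of multiply mapping or duplicate reads is not given in the sources used here. Those steps decide how many reads of repeats and of near-identical genes are counted.

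Region starts were read as counting from 0, since 2604 Input and 3615 J2 starts equal an annotated exon end and 16 and 24 lie 1 base before one. Positions are printed counting from 1. Region counts were summed per gene of GENCODE 29 (a region overlapping 1 gene on its strand by any length) and per stretch (by midpoint), and scaled to library totals. A gene sum can differ from its stretch for that reason, as for IFIT3. With 1 library per group no test exists. Calls used a minimum of 50 counts, 2-fold and a 95% counting interval; the change of J2 over Input used a delta-method interval on counts plus 0.5 with at least 20 Input counts. The interval script was tested on simulated data. Python 3.11.15, numpy 2.4.6, pandas 2.3.3, scipy 1.17.1, matplotlib 3.10.9, R 4.3.3 and edgeR 4.0.16 (for scaling factors only) were used.

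Alternatives covered the scaling, low regions, region assignment, and the window after the gene end. Named items are the members, the other genes of the window, 6 flanking genes, the 5 leading regions outside and 3 inside each gene (of which the first are given), the 5 genes nearest IFIT1, and the 3 highest and lowest interferon genes after the gene end. The members and lists were chosen with earlier results of these data known.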

Additional observations from a re-analysis of the deposited data

Results flagged for a closer look

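In the 100 kb after the window, past the end of SLC16A12-AS1, J2 reads on the IFIT strand numbered 56 in MPS1i and 0 in DMSO. This is at least 27.3-fold higher than a floor of 3 counts. They drew attention because this sequence lies past the stretches compared, although the steps beyond 10 kb after SLC16A12-AS1 reach into it. Input had 2 and 20 counts there. In the 100 kb before the window the same strand had 36 and 92 J2 counts and 12 and 41 Input counts.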

How the results depend on the processing

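No paired analysis was possible because each group held 1 library, and for the same reason no replicate could be left out. Of 173 values of MPS1i over DMSO for members, stretches and the opposite strand under an alternative, all 173 were above 0, 148 were called higher, 24 had too few counts and 1 was not called. Values that were only rescaled, or that reuse the same counts, could hardly change sign, so this tally is no independent check. Scaling moved all log2 ratios by -0.08 to 0.01 in Input and by -0.17 to 0.00 in J2. With at most 1 read per region, which leaves few counts, 0 of 5 members reached the minimum in either table. The window then fell to 3.13 in Input and 2.33 in J2 and the gap after IFIT5 to 3.05 and 1.74. The opposite strand fell to 1.29 and 0.80, the last not called. In J2 the body was then above the gap after it for IFIT1 (2.07 and 1.62) and IFIT5 (2.15 and 1.74). The body was below that gap for IFIT2 (1.53 and 2.24) and IFIT3 (0.88 and 2.70). In Input the gap stayed above the body for each IFIT gene. With only regions of at least 10 counts, 3 of 5 members were higher in Input, IFIT5 and SLC16A12-AS1 having too few counts, and the opposite strand in Input was at 3.41. Without its region with the most MPS1i counts, an alternative chosen after seeing the data, the gap after IFIT5 was at 7.26 in J2. Matching regions between the tables left 38 pairs in the window, 18 on the IFIT strand. J2 over Input in MPS1i was then 0.60 for the gaps and -1.18 for the bodies, the latter called lower, and the difference of gaps and bodies was 1.78 in MPS1i and 3.33 in DMSO, where the bodies were at -2.81 from 4 and 20 counts. No member kept a called change of J2 enrichment (0 against 1). The percentage after the IFIT1 end in Input was 108% as reported and 19.3% in the first 5 kb.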
